A study of Homo sapiens with 4 samples.

Results

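The genes described here are 7 that are used to recognise progenitor cells of the liver and stem-like cells of liver cancer: PROM1, EPCAM, CD24, CD44, LGR5 and ALCAM, which encode cell surface proteins, and SPP1, which encodes the secreted protein osteopontin. They were taken by name, as all probe sets whose single gene symbol in the platform annotation was one of the 7. This gave 28 probe sets of 54613 in the deposited table, and 7 genes of 19775 with a single-symbol probe set. Expression had been measured with Affymetrix arrays in HuH7 cells, an established line from a human hepatocellular carcinoma. There were 2 arrays from cells with wild-type KDM6B and 2 from cells labelled as a CRISPR/Cas9 knockout of KDM6B, a demethylase of lysine 27 on histone H3. The knockout cells had been transfected with a guide and a Cas9 vector, selected with G418 and subcloned by limiting dilution. The labels name no treatment of the wild-type cells, and they leave unsaid whether the knockout arrays read different subclones and whether any cultures were grown apart. Every p-value here thus rests on the spread between these 4 arrays, which may be technical. With no other guide and no rescue, loss of KDM6B and the history of a subclone cannot be told apart.

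In the developing and injured liver, progenitor cells can give rise to hepatocytes and to the cells of bile ducts, and they are sorted by surface proteins that mature hepatocytes lack or carry at low levels. Many hepatocellular carcinomas keep or regain some of these proteins, and cells that carry them have been studied as tumour-initiating cells. The proteins differ in what they do: EPCAM and ALCAM are adhesion molecules, PROM1 sits on membrane protrusions, CD24 is a small glycoprotein anchored by a lipid, CD44 is the main receptor for hyaluronan and also binds osteopontin, and LGR5 is a receptor for R-spondins that strengthens Wnt signalling.

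The arrays were alike as wholes. Medians over all probe sets lay between 4.96 and 5.05 on the log2 scale, 25th percentiles between 3.53 and 3.67, and Pearson correlations between arrays over all probe sets between 0.985 and 0.994. Wild type 1 correlated more with knockout 2 (0.989) than with knockout 1 (0.985), and wild type 2 more with knockout 1 (0.989) than with knockout 2 (0.987). For KDM6B itself, all 5 probe sets had a lower knockout mean (log2 differences -0.40 to -0.21) and 0 passed the test (limma, lowest adjusted p = 0.230, with 2 at an unadjusted p under 0.05). An edit need not lower the mRNA, so these values do not check the labels. The hepatocyte marker ALB had a wild-type mean of 13.80 and a knockout mean of 13.89. AFP, listed here with both the hepatocyte markers and the progenitor genes, had means of 13.76 and 13.70. Both transcripts were thus bright in both groups. Of 7 measured hepatocyte markers 1 was called lower, SERPINA1, and 0 higher, with a median difference of -0.02. FGB read 11.02 and 10.73 in wild type against 10.23 and 10.27 in knockout (-0.63, limma adjusted p = 0.059).

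The members spanned nearly the whole range of the arrays. CD24, EPCAM, PROM1 and ALCAM were bright, SPP1 was of middle brightness, and CD44 and LGR5 were dim. Levels of different probe sets are not comparable as amounts of RNA, so each was set against all probe sets of the same array. On every array, the brightest probe sets of CD24, EPCAM and PROM1 were brighter than 96.9% or more of all probe sets. ALCAM exceeded 96.2% and 96.1% of probe sets in wild type and 82.5% and 81.7% in knockout. SPP1 exceeded 58.6% to 70.6%, and the brightest probe sets of CD44 and LGR5 exceeded 27.2% to 44.7%. Of the 28 probe sets, 11 had a group mean at or above the median of all probe sets (5.01), and 7 lay below the 25th percentile on all 4 arrays.

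**Figure D1:**
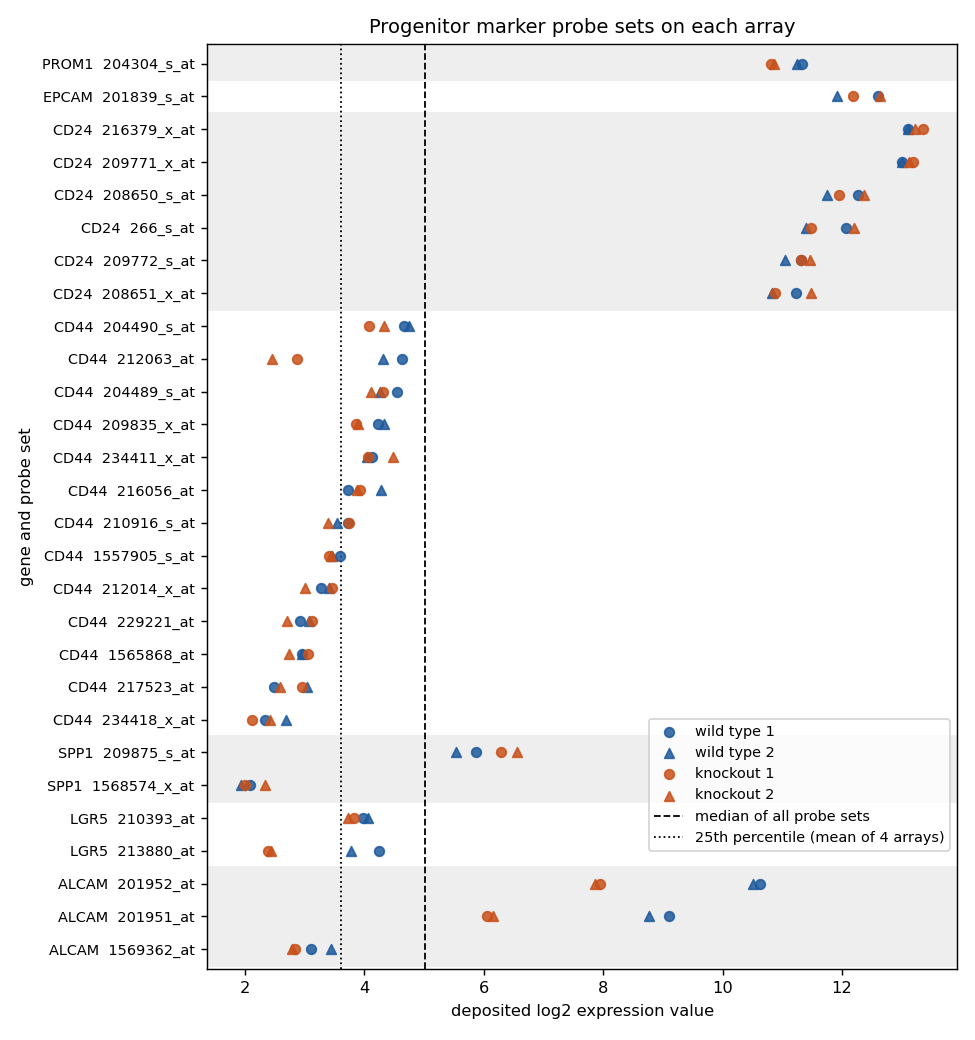
Deposited log2 expression value (x axis) of each of the 28 member probe sets (y axis, grouped by gene) on each array, with wild type in blue, knockout in orange, and circles and triangles for arrays 1 and 2; the dashed line is the median of all probe sets and the dotted line the mean 25th percentile of the 4 arrays. The upper 2 ALCAM probe sets show the widest gap between the groups, CD24 and EPCAM lie far to the right with groups close together, and all CD44 and LGR5 points lie left of the dashed line.

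In knockout, ALCAM RNA fell strongly, by 2 of its 3 probe sets. PROM1 read slightly lower and SPP1 slightly higher without passing the test, EPCAM and all CD24 probe sets did not pass either, and 1 dim probe set each of CD44 and LGR5 fell. Of the 28 probe sets, 4 were lower and 0 higher at an adjusted p under 0.05 (limma, adjusted over all 54613 probe sets), where 2.91% of all probe sets were called, 1.63% lower and 1.27% higher. By the brightest probe set of each gene, 1 of the 7 was called lower, against 2.62% of all genes, and 0 were called higher, against 2.19%. At an unadjusted p, 7997 of all 54613 probe sets were under 0.05. Values of the 2 groups did not overlap for 14 of the 28, with 10 lower and 4 higher in knockout. This held for 40.5% of all probe sets (19.9% lower and 20.5% higher), so values without overlap were common among all probe sets. By brightest probe sets, 4 of the 7 genes were lower without overlap and 2 higher, against 23.5% and 22.4% of all genes (45.9% either way). The median log2 difference of the 7 genes was -0.25, and that of all genes 0.01.

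**Figure D2:**
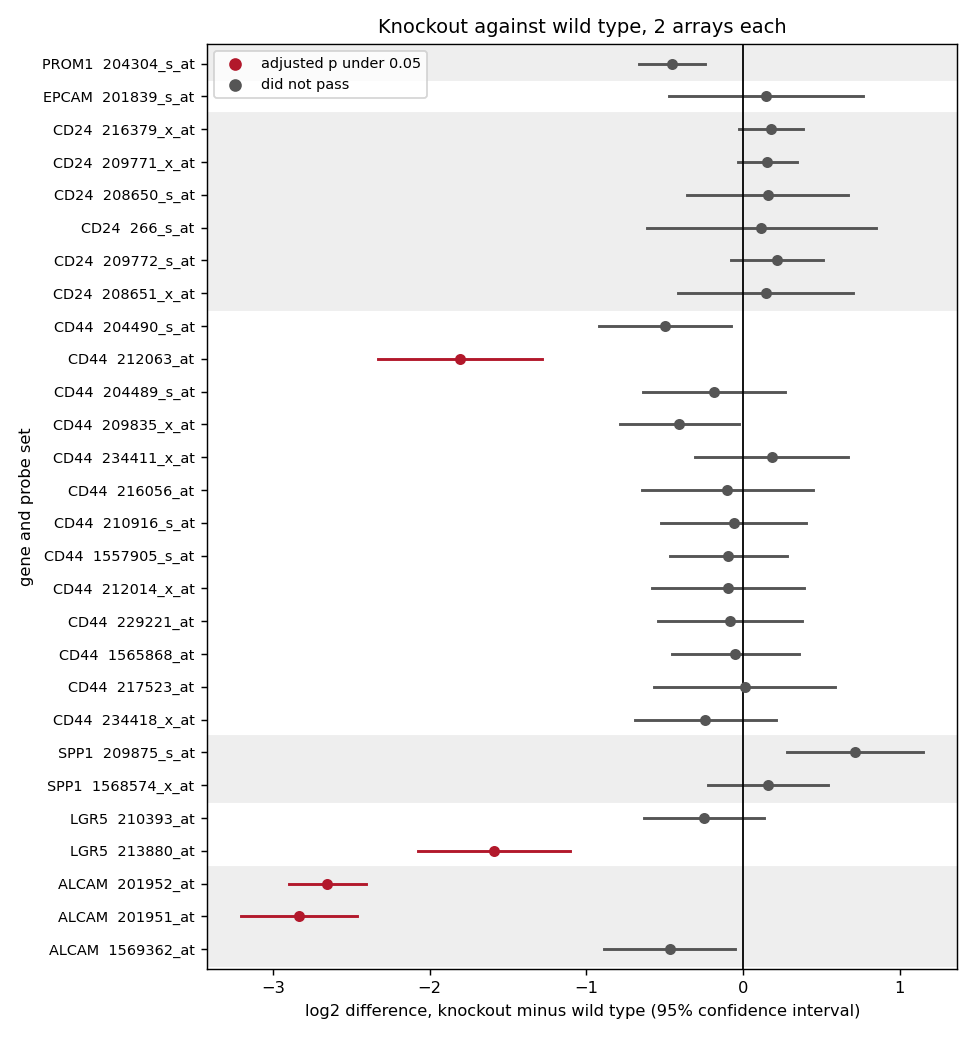
Log2 difference, knockout minus wild type (x axis), of each member probe set (y axis), with the 95% confidence interval of the limma fit as a line; red marks an adjusted p under 0.05. The 4 red points are ALCAM at -2.65 and -2.83, CD44 at -1.81 and LGR5 at -1.59, and the other 24 differences lie between -0.50 and 0.71.

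ALCAM, also called CD166, is an adhesion molecule of the immunoglobulin superfamily that binds itself on neighbouring cells and CD6 on lymphocytes. Its brightest probe set, 201952_at, read 10.62 and 10.50 in wild type against 7.95 and 7.86 in knockout. Both knockout arrays were far below both wild-type arrays, and the arrays within each group differed little. The means were 10.56 ± 0.08 and 7.91 ± 0.06 (SD, n = 2 each), a 6.29-fold fall (log2 difference -2.65, SE 0.10, limma adjusted p = 9.5e-04). The second probe set, 201951_at, read 9.10 and 8.76 in wild type against 6.05 and 6.15 in knockout, a 7.13-fold fall (log2 difference -2.83, SE 0.15, adjusted p = 0.0020). Neither carries the suffix of probe sets that may cross-hybridise. Among the 519 genes called lower by their brightest probe set, ALCAM had the 13th largest fall. The arrays read the whole culture, so fewer cells with ALCAM RNA and less ALCAM RNA per cell cannot be told apart.

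The third ALCAM probe set, 1569362_at, read 3.11 and 3.45 in wild type against 2.84 and 2.78 in knockout, below the 25th percentile on all 4 arrays, and did not pass (log2 difference -0.47, SE 0.17, adjusted p = 0.276). Its sign was that of the other ALCAM probe sets, at a level not shown to be above background. With wild type 1 or wild type 2 left out, both bright probe sets stayed called. Without knockout 1 the difference of 201952_at was -2.70 (adjusted p = 0.160), and without knockout 2 it was -2.61 (adjusted p = 0.137). That of 201951_at was then -2.78 (adjusted p = 0.190) and -2.88 (adjusted p = 0.159). In those 2 fits 0 of all probe sets were called by limma, although 4670 and 4947 had an unadjusted p under 0.05. The 10 measured genes nearest to ALCAM on chromosome 3, 5 on each side in RefSeq order, had a median difference of 0.01, from -0.24 to 0.49, and 0 of them were called by limma. For the 10 nearest at or above the median brightness it was -0.07, from -0.43 to 0.49, with 0 called.

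The promoter of ALCAM is shown because ALCAM carries the main difference, beside those of PROM1 and SPP1, which read lower and higher without passing. RefSeq windows of GRCh38.p14, each 250 bases before to 50 after a transcript start, were matched by symbol for 5 of the 7 genes: PROM1, CD24, CD44, SPP1 and ALCAM. The ALCAM window is chr3:105366659-105366958 on the plus strand, that of PROM1 (its outermost of 4) chr4:16083974-16084273 on the minus strand, and that of SPP1 chr4:87975464-87975763 on the plus strand. Each is written 5′ to 3′ on the strand of the gene, with capitals at matches to the motifs named after the sequences.
ALCAM: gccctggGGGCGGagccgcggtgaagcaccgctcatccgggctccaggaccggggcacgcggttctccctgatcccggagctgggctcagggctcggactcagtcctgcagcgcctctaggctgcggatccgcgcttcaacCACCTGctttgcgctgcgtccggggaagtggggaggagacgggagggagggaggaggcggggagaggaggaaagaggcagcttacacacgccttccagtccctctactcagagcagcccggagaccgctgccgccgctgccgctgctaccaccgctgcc
PROM1: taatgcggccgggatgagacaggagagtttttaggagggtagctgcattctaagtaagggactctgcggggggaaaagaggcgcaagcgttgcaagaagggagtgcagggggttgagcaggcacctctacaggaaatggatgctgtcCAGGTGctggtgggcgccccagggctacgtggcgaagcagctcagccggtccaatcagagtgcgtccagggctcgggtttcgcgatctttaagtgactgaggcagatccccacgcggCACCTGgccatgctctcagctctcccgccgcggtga
SPP1: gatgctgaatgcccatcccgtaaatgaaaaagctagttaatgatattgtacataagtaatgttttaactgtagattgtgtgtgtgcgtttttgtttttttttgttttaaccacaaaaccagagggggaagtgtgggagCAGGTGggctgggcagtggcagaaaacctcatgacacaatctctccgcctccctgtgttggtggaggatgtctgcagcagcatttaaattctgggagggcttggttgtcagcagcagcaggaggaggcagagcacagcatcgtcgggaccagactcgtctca

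Short motifs were searched on both strands. The E-box CAGGTG, bound by ZEB and SNAI factors, has 1 match in the ALCAM window, 2 in that of PROM1 and 1 in that of SPP1, and occurs in 20.6% of all 35116 windows. The GC box GGGCGG of SP and KLF factors has 1 match in the ALCAM window and 0 in the other windows shown, against 45% of all windows. The TCF/LEF core CTTTGA and the AP-1 site TGANTCA have 0 matches in the 3 windows, against 12.9% and 7.71% of all windows. No matches overlap. The ALCAM window holds 26 CG dinucleotides, a number reached by 30.1% of all windows, that of PROM1 18 (44.5%) and that of SPP1 6 (66.3%), with a median of 14. PROM1 windows not shown hold GC boxes, with 2 matches at chr4:16083680-16083979 and 1 at chr4:16083287-16083586. That at chr4:16076069-16076368 holds 1 TCF/LEF match, 1 AP-1 match and 0 GC boxes. Which start these cells use was not measured. A match is a description of the letters, and binding was not measured.

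By the likeness rule, the genes closest to ALCAM over the 4 arrays were DDAH1, UBQLN2 and STAMBPL1. Likeness was the Euclidean distance between log2 values after subtracting the wild-type mean, over 13389 genes at or above the median, and all 4 values of a gene enter it. DDAH1 read 9.92 and 9.96 in wild type against 7.38 and 7.13 in knockout (distance 0.16). UBQLN2 read 8.89 and 8.68 against 6.09 and 6.32 (distance 0.25), and STAMBPL1 8.89 and 8.98 against 6.55 and 6.24 (distance 0.26). With 4 arrays in 2 groups, likeness mostly means a fall of the same size.

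PROM1, also called CD133, encodes a pentaspan protein of membrane protrusions. Its only probe set, 204304_s_at, read 11.34 and 11.25 in wild type against 10.81 and 10.86 in knockout. Both knockout values were lower than both wild-type values by more than the arrays of a group differed. The log2 difference was -0.46 (SE 0.09, 95% interval -0.67 to -0.24), and it missed the threshold when adjusted over all probe sets (limma adjusted p = 0.058). PROM1 passed in a fit over genes by their brightest probe set (limma adjusted p = 0.036), where 1399 of 19775 genes were called. It also passed when dim probe sets were left out (adjusted p = 0.037), where 1320 of 13396 genes were called. The main fit called 953 of 19775 genes. PROM1 did not pass with no intensity trend (limma adjusted p = 0.194), a block on the replicate number (0.424), median centring (0.082) or repeated quantile normalization (0.051). With 1 array left out, its difference ran from -0.50 to -0.41. The probe set is the sole reading of PROM1, and its suffix marks possible cross-hybridisation.

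EPCAM is an epithelial adhesion molecule and a marker of hepatic progenitors and bile duct cells. Its probe set 201839_s_at read 12.60 and 11.92 in wild type against 12.18 and 12.64 in knockout. The groups overlapped, with wild type 1 and knockout 2 high and the other 2 arrays low. The log2 difference of 0.15 (SE 0.25, 95% interval -0.47 to 0.77, limma adjusted p = 0.913) was smaller than the spread within each group, and it turned to -0.19 without wild type 2 and to -0.09 without knockout 2.

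CD24 encodes a heavily glycosylated protein linked to the membrane by a lipid anchor. It was read by 6 probe sets, all of types that may cross-hybridise, and all were bright. The brightest, 216379_x_at, read 13.11 and 13.11 in wild type against 13.36 and 13.21 in knockout, which differ by 0.18 on the log2 scale (SE 0.08, adjusted p = 0.427 by limma). All 6 differences were above 0, from 0.12 to 0.22, and 0 of the 6 passed. The sign was not stable for 3 of them: without wild type 2, 208650_s_at, 208651_x_at and 266_s_at gave -0.11, -0.05 and -0.22, and without knockout 2 they gave -0.05, -0.16 and -0.25. Groups did not overlap for 3 and overlapped for 3. The probe set 266_s_at read 12.06 and 11.39 in wild type against 11.48 and 12.21 in knockout, so here too wild type 1 and knockout 2 were the higher arrays. The probe sets 208650_s_at and 208651_x_at had their higher values on the same 2 arrays, and LGR4, a relative of LGR5, read 10.11, 9.19, 9.52 and 10.36 in the same order. The 95% intervals of the 6 probe sets lay between -0.62 and 0.85, and that of the brightest between -0.03 and 0.38.

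CD44 encodes the hyaluronan receptor, whose transcript is spliced into many forms. All 13 of its probe sets were dim, with values from 2.11 to 4.75 and group means below the median of all probe sets. The probe set 212063_at read 4.63 and 4.31 in wild type against 2.88 and 2.45 in knockout. In knockout it lay under the 25th percentile of each array, a range where signal and background are hard to separate, so the size of the fall is uncertain. The log2 difference was -1.81 (SE 0.21, limma adjusted p = 0.017). The other 12 probe sets differed by -0.50 to 0.18, with 10 below 0 and 2 above, and 0 of them passed (lowest adjusted p = 0.246). For 7 of the 12 the sign turned when 1 of the arrays was left out, and 217523_at (0.01) turned with either rescaling too. The brightest, 204490_s_at, read 4.66 and 4.75 against 4.07 and 4.33, a difference of -0.50 (SE 0.17) without overlap. Probe sets of the gene therefore disagreed in size, and the call rests on 1 of 13.

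LGR5, the R-spondin receptor, was dim as well. The probe set 213880_at read 4.24 and 3.77 in wild type against 2.39 and 2.44 in knockout, where both values were below the 25th percentiles, and the log2 difference was -1.59 (SE 0.20, limma adjusted p = 0.019). As for CD44, the size of this fall is uncertain at such low knockout values. The brighter one, 210393_at, read 3.98 and 4.06 against 3.82 and 3.73, which did not overlap and did not pass (-0.25, SE 0.16, adjusted p = 0.588). The mean of both probe sets passed in a fit over genes (-0.92, limma adjusted p = 0.017). That mean includes the called probe set, so it is not a separate reading. Calls were rare at such levels: of 26363 probe sets below the median, 27 were called lower (0.102%). Leaving out any 1 of the 4 arrays ended both dim calls. Differences then ran from -2.02 to -1.59 for 212063_at of CD44 (adjusted p 0.098 to 0.314) and from -1.82 to -1.36 for 213880_at of LGR5 (adjusted p 0.066 to 0.335).

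SPP1 encodes osteopontin, a secreted phosphoprotein that binds CD44 and integrins. Its probe set 209875_s_at read 5.86 and 5.54 in wild type against 6.28 and 6.55 in knockout. Both knockout values were higher, by a log2 difference of 0.71 (SE 0.18, 95% interval 0.28 to 1.15), and the test was not passed (limma adjusted p = 0.115). The second probe set, 1568574_x_at, was among the dimmest on the arrays, at 1.94 to 2.34, and its groups overlapped. For the members other than ALCAM, the 10 nearest measured genes on the chromosome had medians between -0.03 and 0.10. Of all these neighbours 1 was called, a higher one beside CD24. Over the 10 nearest genes at or above the median brightness, these medians lay between -0.16 (LGR5) and 0.16 (SPP1), with -0.15 for PROM1.

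**Figure D3:**
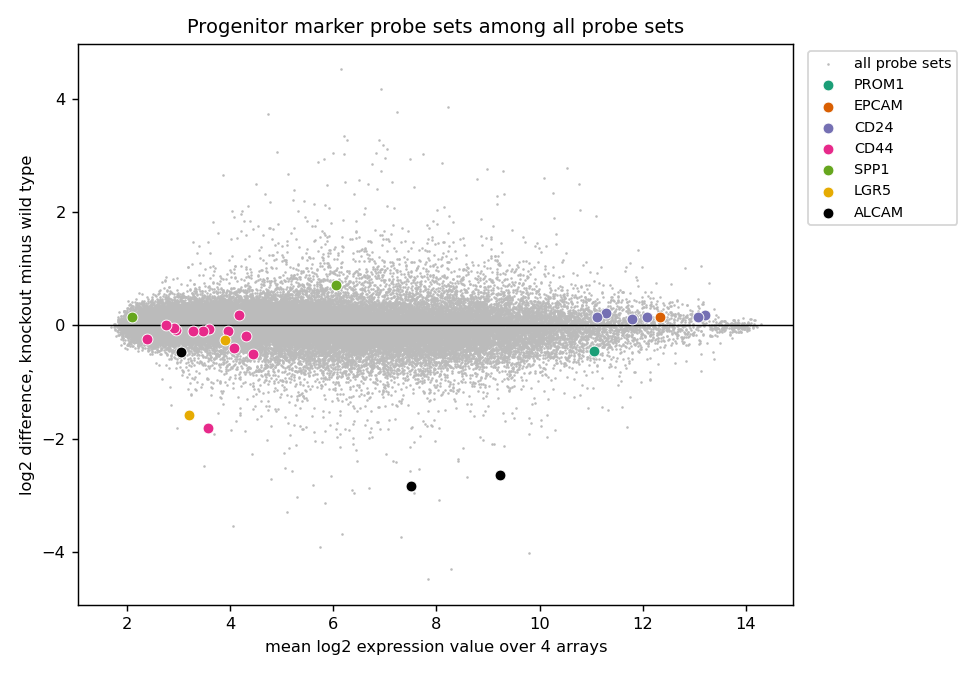
Log2 difference, knockout minus wild type (y axis), against the mean log2 value over the 4 arrays (x axis) for all 54613 probe sets in grey and the 28 member probe sets in colour by gene. The bright ALCAM points lie at -2.65 and -2.83, and the CD24 and EPCAM points lie between 0.12 and 0.22.

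Genes that act with the members were read by their brightest probe set, from lists drawn up by name, with 4.82% of all genes called by that reading. None of these lists was tested as a set. Other surface markers of liver progenitor and cancer stem cells included THY1, KIT, ANPEP, CDH1 and ITGA6. Of 16 measured, 0 were called by limma, with a median difference of 0.15. The chemokine receptor gene CXCR4 read 5.53 and 5.01 in wild type against 6.29 and 6.34 in knockout, the largest difference in the list (1.04, adjusted p = 0.061). The oncofetal proteoglycan gene GPC3 read 12.26 and 12.36 against 12.73 and 12.68 (0.39, adjusted p = 0.071).

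Of 24 measured LGR5 relatives, R-spondins, Wnt receptors and Wnt targets, 3 rose, 0 fell and 21 did not pass, with a median of -0.01. DKK1, which encodes a secreted inhibitor of Wnt co-receptors, read 9.26 and 9.03 in wild type against 11.89 and 11.96 in knockout, a 6.86-fold rise (log2 difference 2.78, SE 0.11, limma adjusted p = 9.5e-04). The Wnt receptor gene FZD7 rose by 1.06 (SE 0.13), with both its probe sets called. FZD5, another Wnt receptor gene, rose by 0.79 (SE 0.08), and its second probe set gave 0.27 and did not pass. The Wnt target AXIN2 read 5.38 and 5.47 in wild type against 5.45 and 5.37 in knockout, and the R-spondin-regulated ligases ZNRF3 and RNF43 differed by -0.20 and -0.28 without passing.

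Of 21 measured receptors, enzymes and binding proteins of osteopontin and hyaluronan, 1 fell, 0 rose and 20 did not pass (median 0.04). ITIH2, a plasma protein heavy chain that is attached to hyaluronan, read 11.91 and 12.05 in wild type against 11.12 and 11.05 in knockout (log2 difference -0.90, SE 0.09, limma adjusted p = 0.011). The osteopontin receptor subunit ITGAV read 10.76 and 10.48 against 10.93 and 11.30 and did not pass (0.50, adjusted p = 0.208).

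Among 20 measured partners, sheddases and splicing factors of the members, 3 rose, 1 fell and 16 did not pass (median 0.04). MMP14, a membrane protease that can cleave CD44, rose by 1.18 (SE 0.11), with 3 of its 4 probe sets called. ADAM10, a sheddase of CD44, rose by 0.59 (SE 0.08), with 1 of 3 probe sets called and the same sign in all. The splicing factor gene ESRP1, which favours epithelial forms of CD44, rose by 0.62 (SE 0.10) by 1 of 2 probe sets. HDAC6, reported as a partner of PROM1, fell by 1.03 (SE 0.14) by 1 of 3 probe sets. It lies on the X chromosome among genes that were lower as well: its 10 nearest measured genes had a median of -1.13, with 6 called lower, and the part of that stretch in the HDAC6 value was not tested.

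Another list held genes of progenitors and bile ducts, most for intracellular or secreted proteins and some, such as CFTR and AQP1, for membrane proteins. Of 16 measured, 2 rose and 0 fell, and the other 14 missed the threshold (median 0.17). SOX4, a transcription factor gene, rose by 0.81 (SE 0.10), with 4 of 6 probe sets called. KRT19, a keratin of bile ducts, rose by 0.53 (SE 0.08), and its dim second probe set gave -0.23 without passing. SOX9, which marks progenitors and bile ducts, read 11.05 and 11.04 in wild type against 10.91 and 10.91 in knockout (adjusted p = 0.561).

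Of 20 measured transcription factors and pathway genes known to act on these markers, 2 rose, 2 fell and 16 did not pass (median 0.18). JAG1, a Notch ligand, rose by 1.03 (SE 0.09), with 4 of 6 probe sets called. The Notch receptor gene NOTCH2 rose by 0.75 (SE 0.11), with 2 of 4 probe sets called, although it has close copies in the genome that may share signal. KLF4 fell by 1.77 (SE 0.17) by 1 of 2 probe sets, the other giving -0.05, and MYC fell by 1.00 (SE 0.10) by its only one.

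**Figure D4:**
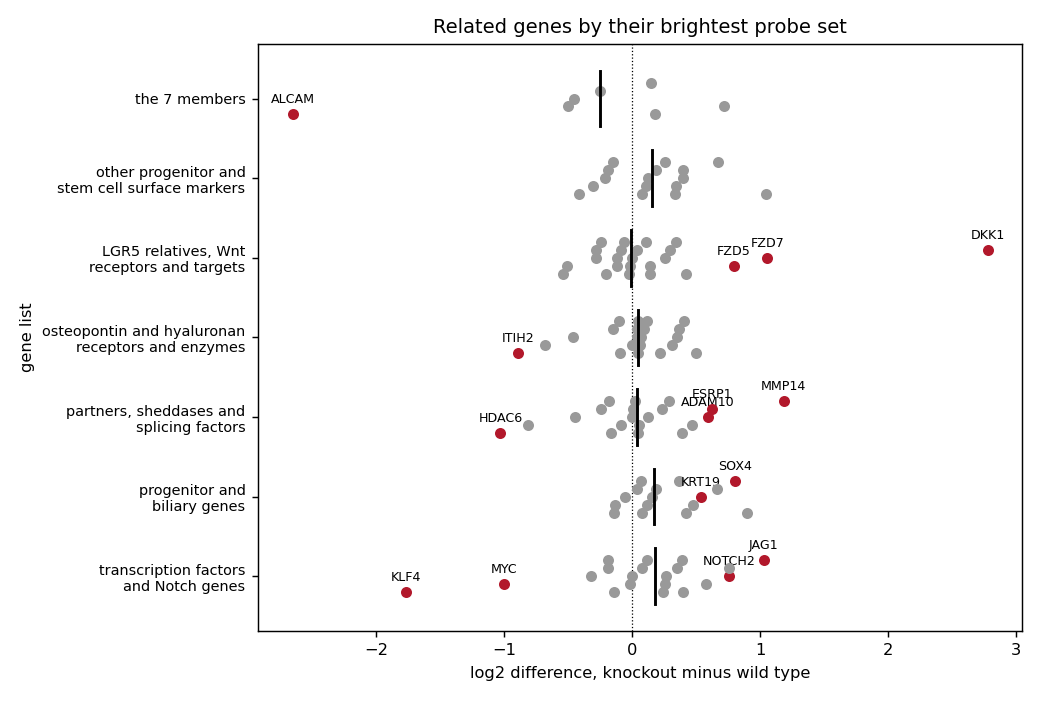
Log2 difference, knockout minus wild type (x axis), of each gene by its brightest probe set, for the 7 members and the 6 related lists (y axis); red points had an adjusted p under 0.05 and are named, and black bars are medians. ALCAM at -2.65 and DKK1 at 2.78 lie farthest from 0, while the list medians lie between -0.25 and 0.18.

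Markers of other cell types were read in the same way. Of 5 measured leukocyte markers 0 were called, and their summed level, dominated by LYZ, was 11.35 and 10.74 in wild type against 9.38 and 9.98 in knockout on the log2 scale. The pan-leukocyte gene PTPRC lay below the 25th percentile on all arrays. LYZ read 11.27 and 10.59 against 8.95 and 9.75 (adjusted p = 0.069), and its second probe set was called and fell by 2.02 (SE 0.12, limma adjusted p = 0.0029). Of 7 fibroblast and stellate cell markers 0 were called, with summed levels of 8.14 to 8.33 in wild type and 8.37 to 8.44 in knockout. The brightest was COL1A1, at 6.86 and 7.17 against 7.15 and 7.14 (its other 4 probe sets differed by -0.05 to 1.43, 0 called), and LUM lay below the 25th percentile on all arrays. Of 6 endothelial markers 0 were called, with summed levels of 7.93 to 8.08 in wild type and 7.54 to 7.72 in knockout, and CDH5 and KDR lay below the 25th percentile on all arrays. The brightest was PECAM1, at 7.17 and 7.37 against 6.58 and 6.20 (adjusted p = 0.063), and 1 of its other 4 probe sets was called lower (-0.76, adjusted p = 0.046). The part of LYZ and PECAM1 in the ALCAM result was not tested. Of 7 hepatocyte markers 1 was called, SERPINA1, which fell by 0.49 (SE 0.08), with 2 of 4 probe sets called.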

How the data were processed

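RNA of 4 samples of HuH7 cells, 2 wild type and 2 KDM6B knockout by their titles, was read on Affymetrix arrays. Per the labels' protocols, DNase-treated total RNA was amplified by in vitro transcription primed at the 3′ end. The table deposited by the authors holds log2 values, 1 per probe set and array, from RMA in the affy package per the submitters' processing notes, which name no version. RMA equalises the distributions of arrays, which would hide a shift common to most genes. No detection calls were used, and precision is limited by having 4 arrays.

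Probe sets were named through the platform annotation (41091 with 1 symbol, 1801 with several and 11721 with none). Groups were compared with limma 3.58.1 in R 4.3.3 (eBayes with an intensity trend) over all 54613 probe sets, two-sided, with Benjamini-Hochberg adjustment and a threshold of 0.05. Residual degrees of freedom were 2 and prior ones 3.89, and intervals are at 95%. An exact permutation test of 2 against 2 arrays cannot go below p = 0.333 and was not run. Genes were read by their brightest probe set, and probe sets ending in _s_at or _x_at were taken as open to cross-hybridisation. Named genes were the members, KDM6B, up to 3 called genes per list and direction, the brightest marker of each other cell type and the 3 genes most like each called member; other list genes were named after their values were seen. The members and lists were chosen with earlier results of these data known. The steps were tested on simulated data. Tables and figures used Python 3.11.15, pandas 2.3.3 and matplotlib 3.10.9. The alternatives are given in the closing section.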

Additional observations from a re-analysis of the deposited data

How the results depend on the processing

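In the main fit, 1587 of 54613 probe sets were called (4 member probe sets, 1 member gene). A fit with no intensity trend gave 641 calls, and a threshold of 0.10 gave 2954. Leaving out the suffixes that mark possible cross-hybridisation gave 831 calls among 39114 probe sets. The causes of the 641 and the 831 were not tested. Repeated quantile normalization gave 1043 calls higher and 1047 lower, and median centring 583 and 857, against 696 and 891. Leaving out 1 array gave 0 to 82 calls over all probe sets, 0 to 2 among member probe sets and 0 to 1 among member genes, with fewer arrays in the fit and the lone array assumed to vary like the other group. With the filter on dim probe sets, 2 member genes were called. There 1320 of all 13396 genes were called, against 953 of 19775 in the main fit. The filter left 11 member probe sets and 5 member genes, none of CD44 or LGR5. Of these probe sets 3 were called, where 2221 of 28250 were called over the whole table. The fit over genes by brightest probe set gave 2 member genes as well, with 1399 of 19775 genes called. An adjusted p under 0.10 also gave 2, with 1669 genes called. The mean of all probe sets of a gene gave 3, with 1323 of 19775 genes called. The added genes were PROM1 and, with means, LGR5. Among the brightest probe sets of the 7 genes, EPCAM alone reversed, to -0.19 without wild type 2 and -0.09 without knockout 2, in a range of -0.19 to 0.49 over the left-out arrays. Outside the left-out arrays, both bright ALCAM probe sets stayed called under all 7 planned settings that read single probe sets (adjusted p 9.1e-05 to 0.033).

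Same-numbered arrays tended to move in opposite directions around their group means (correlation of deviations over probe sets -0.50), so the numbers were not taken as pairing. A replicate block on the number gave 77 calls over all probe sets and 2 among member probe sets, both of ALCAM. The crossed pairing, chosen after seeing the data, gave 4349 calls over all probe sets and 6 among member probe sets (1 higher and 5 lower). It gave 3 calls among member genes (1 higher and 2 lower), with 2527 of all 19775 genes called. PROM1, EPCAM, CD24 and SPP1 had no value without probe sets that may cross-hybridise.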
